A study of Mus musculus with 24 samples.

Results

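The values below describe 10 genes of protein folding in the endoplasmic reticulum (ER) and of the response to unfolded protein: Hspa5, Hsp90b1, Calr, Pdia4, Dnajb9, Sdf2l1, Herpud1, Xbp1, Ern1 and Atf6. They were taken by gene symbol, and all 10 were found among the 17696 genes of the count table. The libraries came from MIN6 cells, an insulinoma-derived β cell line of the mouse, and bulk RNA-seq was performed on 3 stable lines with and without proinflammatory cytokines. Scr cells carried a scrambled sequence (miRZip-000), ZIP cells an antisense construct against miR-146a-5p (miRZip-146a) in the same copGFP vector, and OE cells a construct that overexpresses miR-146a-5p (shMIMIC) in another vector, with Turbo RFP. Scr+Cy, ZIP+Cy and OE+Cy cells were the same lines after 24 h with TNFα at 10 ng/ml, IFNγ at 100 ng/ml and IL-1β at 5 ng/ml. All lines had been selected with puromycin and expanded from single clones, so clone and construct cannot be told apart, and for OE neither can the vector. Each of the 6 groups had 4 libraries. Each replicate number carries 1 code in the labels, P65 to P68, shared by the 6 groups and not explained there. Nothing in the labels says that replicates were separate cultures, so p values measure only the spread between these libraries, which may be technical.

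The overexpressed or blocked microRNA, as RefSeq gives it on GRCm38.p6 (chr11:43374435-43374456, minus strand), is shown to let its target site be read below, with the seed, bases 2 to 8, in capitals. The microRNA itself is not in the count table, so its level could not be checked in these libraries. By qRT-PCR, the paper found it raised in untreated OE cells but unchanged in untreated ZIP cells, each against Scr. With cytokines it rose in each line over its untreated level, least in ZIP.
mmu-miR-146a-5p: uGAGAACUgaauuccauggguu

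Secreted proteins fold in the ER, where BiP and other chaperones hold them and disulfide isomerases form their bonds. When unfolded protein builds up, BiP leaves the sensors IRE1α, ATF6 and PERK, which raise the expression of chaperones and of degradation factors and slow translation. β cells fold large amounts of proinsulin, which makes this pathway prominent in them, and cytokines are a known source of ER stress in these cells.

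Assigned reads per library ran from 26657792 to 37168232, with a median of 30701023. All 24 libraries were most alike, over all genes, to a library of their own group. The 10 checked markers of β cells were all listed, and their summed level was 27145 to 34848 CPM in Scr, 37368 to 40275 CPM in ZIP and 50151 to 53887 CPM in OE. With cytokines it was 29103 to 31544 CPM in Scr+Cy, 34557 to 39643 CPM in ZIP+Cy and 31433 to 41342 CPM in OE+Cy. CPM gives a gene's reads relative to the total of its library, after scaling between libraries by the trimmed mean of M values (TMM). Of the 6 fibroblast markers, summed levels were highest in ZIP replicate 1 (54.0 CPM) and Scr+Cy replicate 1 (58.7 CPM), against at most 7.95 and 3.51 CPM in the other libraries of those groups. Scr replicate 1 was next, at 18.9 CPM against at most 3.94 CPM in the other Scr libraries. One duct cell marker, Krt19, stood at 12.4 to 24.2 CPM in the libraries of OE and OE+Cy and at 0 in all others. The other acinar and duct markers found did not go with it. Sox9 and Cela1 were at 0 in OE and OE+Cy, and at most 1.11 and 0.21 CPM elsewhere. In bulk libraries, fewer cells of a type and less RNA per cell cannot be told apart.

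The 10 genes together took 0.710% ± 0.057 of all reads in Scr (SD, n = 4), 0.745% ± 0.147 in ZIP and 0.957% ± 0.072 in OE. With cytokines, they took 0.814% ± 0.128 in ZIP+Cy, 0.554% ± 0.055 in OE+Cy and 0.759% ± 0.052 in Scr+Cy. The share was thus highest in untreated OE cells and lowest in the same cells after cytokines, and the libraries of OE and OE+Cy did not overlap. On the Mus musculus build mm10, Hspa5 lies at chr2:34772090-34776529 and Hsp90b1 at chr10:86690841-86705444. Calr lies at chr8:84842088-84846931, Pdia4 at chr6:47796141-47813512 and Dnajb9 at chr12:44205897-44210068. Sdf2l1 lies at chr16:17130138-17132383, Herpud1 at chr8:94386429-94395371 and Xbp1 at chr11:5520641-5525993. Ern1 lies at chr11:106397620-106487796 and Atf6 at chr1:170704457-170867771, and no other gene of the count table overlaps any of the 10. Counts of Hspa5, Pdia4, Dnajb9, Herpud1 and Xbp1 were not whole numbers in 21 to 24 of the libraries, so their reads may have been shared with other features and their levels are uncertain to that extent.

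Divided by the annotated exon length of each gene, Calr had the highest level in Scr (951 CPM per kb), followed by Hsp90b1 (644) and Hspa5 (475). Sdf2l1 (101 CPM per kb), Xbp1 (96.0) and Pdia4 (93.0) were next, and Herpud1 (69.1), Dnajb9 (67.1), Atf6 (33.8) and Ern1 (23.8) followed. The gap between Xbp1 and Pdia4, and that between Herpud1 and Dnajb9, was smaller than the coefficients of variation of their libraries in Scr, which were 4.11% to 10.7%. The gap between Sdf2l1 and Xbp1 was smaller than that of Sdf2l1 (7.27%) but not that of Xbp1 (4.11%).

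**Figure D1:**
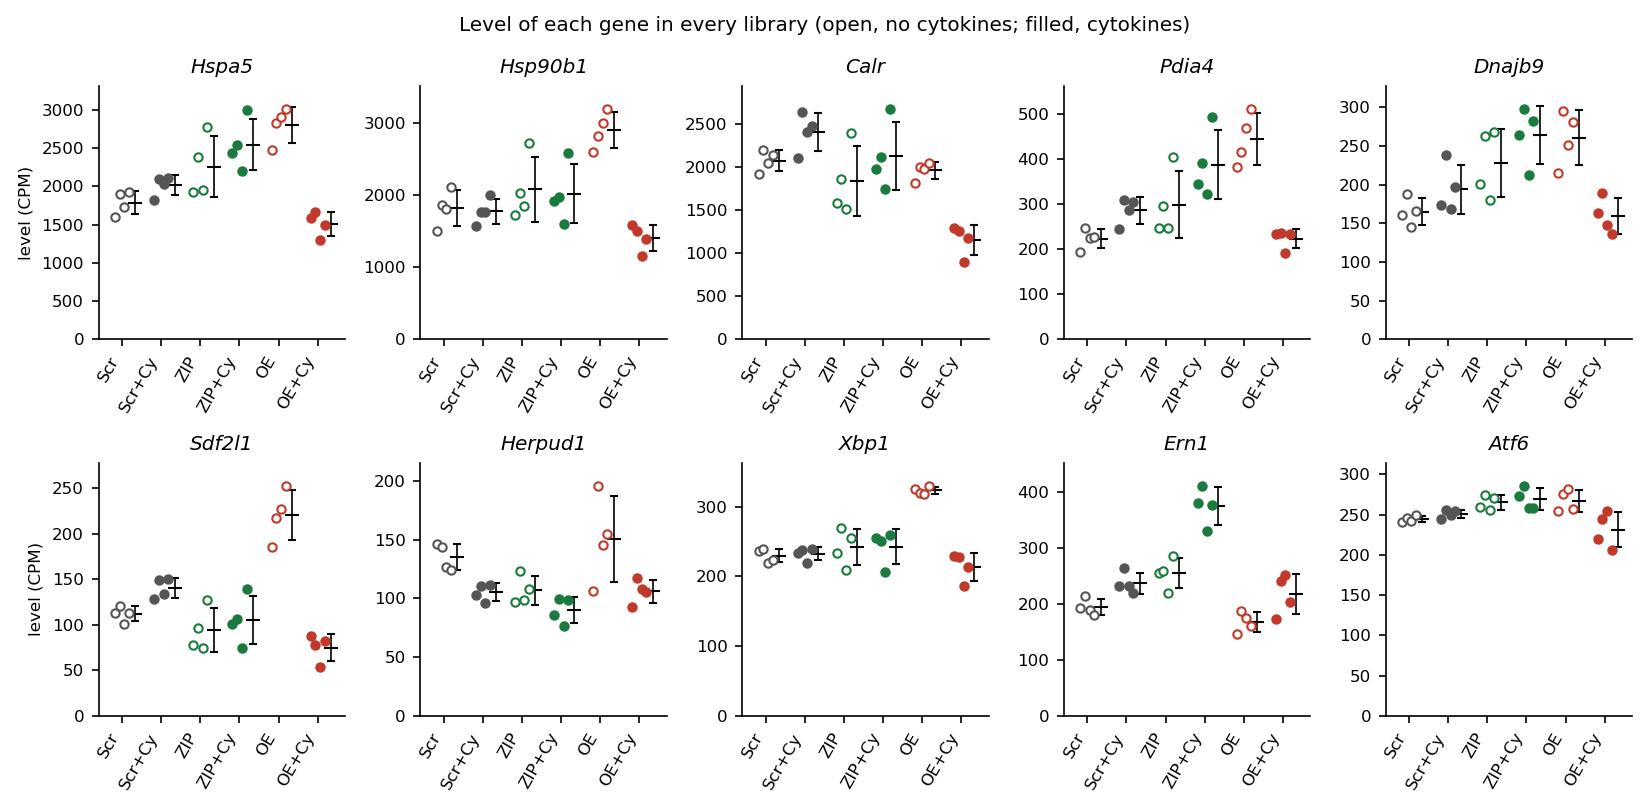
Level of each of the 10 genes in CPM (linear axis from 0) in every library of the 6 groups. Points are single libraries, open without and filled with cytokines, and the bar beside them is the mean ± SD of 4 libraries; Hspa5 averaged 2802 CPM in OE and 1510 CPM in OE+Cy.

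Promoter sequence was examined because chaperone genes are known to share binding sites for ATF6 and XBP1. The windows, from RefSeq on GRCm38.p6, held 250 bases before to 50 bases after the annotated start of transcription, and 9 of the 10 genes had one. Atf6 had none. The 2 ER stress elements were searched as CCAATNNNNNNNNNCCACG (ERSE) and ATTGG, any 1 base and CCACG (ERSE-II), and the core of the unfolded protein response element as TGACGTG, on both strands. A match is a run of letters and does not show that a factor binds there. The ERSE was found in Hspa5, Hsp90b1 (2 matches) and Calr, and ERSE-II in Herpud1, and the UPRE core in Hspa5, with no overlap between matches. Among 13884 genes of the count table with a window, 0.173% held the ERSE, 0.0792% ERSE-II and 2.93% the UPRE core. The windows of Pdia4, Dnajb9, Sdf2l1, Xbp1 and Ern1 held no match. The 250 bases before the start are printed for the 4 genes with an ERSE or ERSE-II and for Sdf2l1, the gene with the largest cytokine change, with matches in capitals. They lie at chr2:34771840-34772089 (Hspa5, plus strand), chr10:86705445-86705694 (Hsp90b1, minus), chr8:84846932-84847181 (Calr, minus), chr8:94386179-94386428 (Herpud1, plus) and chr16:17132384-17132633 (Sdf2l1, minus), and each reads 5′ to 3′ on the strand of its gene.
Hspa5: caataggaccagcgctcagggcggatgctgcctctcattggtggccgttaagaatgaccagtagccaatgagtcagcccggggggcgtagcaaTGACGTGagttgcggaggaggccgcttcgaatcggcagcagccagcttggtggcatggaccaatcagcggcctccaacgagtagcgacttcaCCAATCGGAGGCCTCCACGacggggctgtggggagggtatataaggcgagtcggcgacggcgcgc
Hsp90b1: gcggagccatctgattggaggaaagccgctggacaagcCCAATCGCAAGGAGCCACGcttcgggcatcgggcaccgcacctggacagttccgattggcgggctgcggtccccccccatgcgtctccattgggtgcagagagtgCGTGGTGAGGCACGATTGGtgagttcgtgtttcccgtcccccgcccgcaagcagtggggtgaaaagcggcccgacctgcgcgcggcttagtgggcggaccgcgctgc
Calr: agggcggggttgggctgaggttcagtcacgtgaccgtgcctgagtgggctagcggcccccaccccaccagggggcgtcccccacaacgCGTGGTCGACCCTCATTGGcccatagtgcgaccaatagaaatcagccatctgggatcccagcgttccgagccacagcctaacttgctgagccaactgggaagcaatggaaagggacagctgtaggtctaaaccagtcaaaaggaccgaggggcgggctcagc
Herpud1: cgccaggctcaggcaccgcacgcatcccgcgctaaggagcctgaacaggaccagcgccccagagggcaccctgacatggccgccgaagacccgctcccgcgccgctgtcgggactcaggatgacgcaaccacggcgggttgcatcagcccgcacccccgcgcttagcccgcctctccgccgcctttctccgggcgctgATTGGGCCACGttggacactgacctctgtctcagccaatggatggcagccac
Sdf2l1: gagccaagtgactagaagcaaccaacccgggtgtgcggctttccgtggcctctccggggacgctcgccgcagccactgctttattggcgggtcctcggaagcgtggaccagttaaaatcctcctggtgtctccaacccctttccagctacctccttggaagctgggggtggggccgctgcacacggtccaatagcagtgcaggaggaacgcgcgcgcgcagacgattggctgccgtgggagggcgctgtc

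The match nearest to a start was that of Herpud1, 52 to 42 bases before it, and that of Hspa5 lay 65 to 47 bases before it. In Hsp90b1 one match read along the gene, 212 to 194 bases before the start, and the other against it, 107 to 89 bases before. The match of Calr read against the gene, 162 to 144 bases before the start. Of the other ER genes listed below, the ERSE was found in Canx, Creld2 and Dnajc3 among chaperones, Ero1b and Pdia6 among disulfide enzymes, and Derl3 and Syvn1 among degradation factors, and ERSE-II in Dnajb11.

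A site for bases 2 to 8 of miR-146a-5p (AGTTCTC) was searched in the longest annotated 3′ UTR of each gene in GENCODE release M21. Of the 10 genes, Atf6 had 1 match, at chr1:170708925-170708931 on the minus strand, and the other 9 had 0. Among 15438 genes with a 3′ UTR, 12.1% had a match, and their median UTR length was 1113 bases against 5205 bases for Atf6. The Atf6 match is shown with its flanks, the site in capitals.
Atf6: cagtatggtgaAGTTCTCagtttttccag

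The question of the cytokine comparisons was how each line responded to inflammatory stress. In OE cells, cytokines lowered 9 of the 10 genes and raised Ern1, while 0 of 10 passed the test in Scr and 1, Ern1, which rose, passed in ZIP. Of all genes, 44.6% passed in OE, 17.8% in Scr and 26.4% in ZIP. With libraries paired by replicate number and each line fitted alone, 7 of 10 passed in Scr and 7 in ZIP, of which 6 were higher and Herpud1 lower in each line. That fit, chosen after seeing the data, called 31.1% of all genes in Scr and 36.7% in ZIP. Hspa5, Hsp90b1, Pdia4 and Sdf2l1, whose mean levels were highest in untreated OE cells, were lower in OE+Cy than in Scr+Cy. Passing means an adjusted p value under 0.05 in edgeR's quasi-likelihood test, with Benjamini-Hochberg adjustment over all 17696 genes, and every adjusted p value below comes from it.

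**Figure D2:**
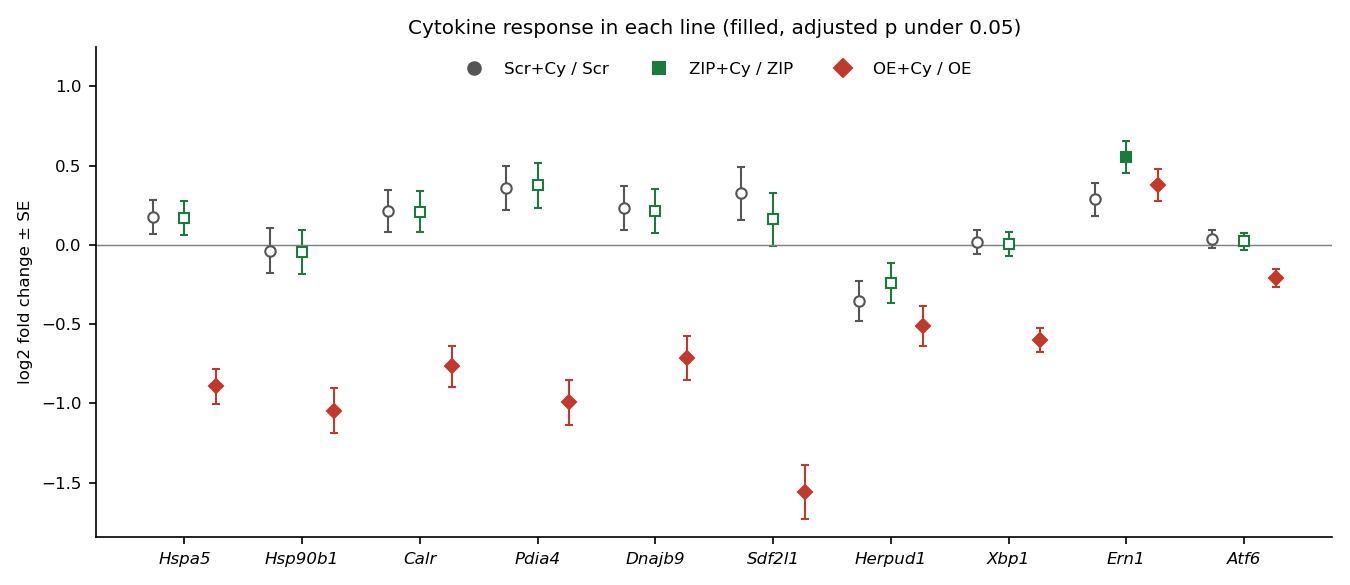
Cytokine response of the 10 genes in each line, as log2 fold change ± SE from the edgeR model (4 libraries per group); filled symbols have an adjusted p value under 0.05. All 10 symbols of OE are filled, 9 of them below 0, while in Scr none and in ZIP only that of Ern1 is filled.

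In OE cells 10 of 10 genes passed, 1 higher and 9 lower, where 23.0% of all genes were higher and 21.5% lower. At the thresholds the study used, an unadjusted p under 0.05 with a change of 1.5-fold or more, 7 genes were called, against 21.0% of all genes. The median log2 fold change of the 10 genes was −0.74, against 0.02 for all genes. For 8 genes the OE+Cy libraries were all lower than the OE libraries, as they were for 3451 of all 17696 genes (40.2% of all genes did not overlap, in either direction). In each of the 4 pairs of libraries with the same number, 9 genes were lower with cytokines and Ern1 was higher. The β cell marker sum was lower too, at 31433 to 41342 CPM in OE+Cy against 50151 to 53887 CPM in OE. Among these markers, Pdx1 went from 627 to 337 CPM and Mafa from 716 to 358 CPM (group means), and their part in the fall of the 9 genes was not tested.

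Hspa5 encodes BiP, the Hsp70 chaperone of the ER lumen, which also binds the sensors. It read 2467, 2827, 2906 and 3008 CPM in the 4 OE libraries, and 1584, 1659, 1299 and 1499 CPM in the OE+Cy libraries of the same numbers. Every OE+Cy library was below every OE library, and the log2 fold change was −0.89 ± 0.11 (SE; adjusted p = 3.24e-07). In Scr it read 1596, 1902, 1723 and 1919 CPM, and in Scr+Cy 1825, 2094, 2034 and 2108 CPM. Those groups overlapped, and the log2 fold change was 0.18 ± 0.11 (adjusted p = 0.299), although each pair of the same number was higher with cytokines. In ZIP it read 1927, 2378, 1952 and 2771 CPM and in ZIP+Cy 2433, 2542, 2196 and 2998 CPM, again with overlap, and the log2 fold change was 0.17 ± 0.11 (adjusted p = 0.262).

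Hsp90b1 encodes GRP94, the Hsp90 chaperone of the ER. Its levels were 2592, 2815, 2998 and 3189 CPM in OE and 1578, 1498, 1150 and 1388 CPM in OE+Cy. The groups did not overlap, and the level was 2.06-fold lower with cytokines (log2 fold change −1.05 ± 0.14, adjusted p = 1.52e-06). Levels in Scr were 1498, 1858, 1808 and 2112 CPM, and in Scr+Cy 1576, 1762, 1760 and 1998 CPM. Unlike the other chaperones, Hsp90b1 was higher with cytokines in 1 of 4 pairs in Scr and in 1 of 4 in ZIP, and its log2 fold changes there were −0.04 ± 0.14 in both lines.

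Calr encodes calreticulin, a lectin chaperone that binds calcium and glycoproteins. It stood at 1816, 2006, 1977 and 2052 CPM in OE and at 1288, 1254, 893 and 1179 CPM in OE+Cy. All OE+Cy libraries were lower (log2 fold change −0.77 ± 0.13, adjusted p = 3.90e-05). In Scr the levels were 1916, 2201, 2048 and 2140 CPM and in Scr+Cy 2106, 2641, 2414 and 2476 CPM, higher in each of the 4 pairs but overlapping, with a log2 fold change of 0.21 ± 0.13 (adjusted p = 0.298). The OE+Cy level was the lowest of the 6 groups.

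Pdia4 encodes ERp72, a protein disulfide isomerase. Its levels in OE were 382, 416, 468 and 510 CPM, and in OE+Cy 233, 235, 192 and 233 CPM. OE+Cy was lower in every library, and the level fell by 49.7% (log2 fold change −0.99 ± 0.14, adjusted p = 3.29e-06). In Scr it read 194, 246, 224 and 228 CPM, and in Scr+Cy 244, 308, 287 and 305 CPM. Among the 10 genes it had the highest log2 fold change in Scr, 0.36 ± 0.14, but with an adjusted p value of 0.0834. In ZIP the value was 0.38 ± 0.14 (adjusted p = 0.0511), and 246 to 404 CPM in ZIP overlapped with 322 to 492 CPM in ZIP+Cy.

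Sdf2l1 encodes a lumenal ER protein that works with the BiP co-chaperone Dnajb11, and it had the largest change of the 10 genes. OE libraries held 186, 217, 227 and 253 CPM and OE+Cy libraries 87.2, 77.2, 53.9 and 81.7 CPM. Without overlap, the level was 2.94-fold lower with cytokines (log2 fold change −1.56 ± 0.17, adjusted p = 5.69e-08). Scr libraries held 113, 121, 101 and 113 CPM and Scr+Cy libraries 128, 150, 134 and 150 CPM. Those groups did not overlap either, in the opposite direction, but the log2 fold change of 0.32 ± 0.17 had an adjusted p value of 0.195.

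Dnajb9 encodes ERdj4, a J-domain partner of BiP that also binds IRE1α. Its level was 215 to 296 CPM in OE and 136 to 190 CPM in OE+Cy, without overlap, and the log2 fold change was −0.71 ± 0.14 (adjusted p = 1.80e-04). In Scr and ZIP its log2 fold changes were 0.23 ± 0.14 (adjusted p = 0.284) and 0.21 ± 0.14 (adjusted p = 0.289). Herpud1 encodes a membrane protein of ER-associated degradation. Its log2 fold changes were below 0 in all 3 lines, at −0.36 ± 0.13 in Scr (adjusted p = 0.0520), −0.24 ± 0.13 in ZIP (adjusted p = 0.172) and −0.51 ± 0.13 in OE (adjusted p = 0.00183), so that it passed in OE only. Its OE libraries were the most spread, at 106, 196, 145 and 155 CPM, and overlapped with the 92.8 to 117 CPM of OE+Cy. In Scr, the 124 to 146 CPM without cytokines and 95.8 to 112 CPM with them did not overlap. All 4 pairs of the same number were lower with cytokines in each line.

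Xbp1 encodes the transcription factor whose mRNA IRE1α splices, and the gene counts do not separate its spliced and unspliced forms. OE libraries were close together, at 325, 320, 319 and 330 CPM, and OE+Cy libraries read 229, 227, 186 and 213 CPM. The groups did not overlap, and the log2 fold change was −0.60 ± 0.08 (adjusted p = 6.36e-07). In Scr and ZIP, Xbp1 had log2 fold changes of 0.02 ± 0.08 and 0.01 ± 0.08. Atf6, which encodes the sensor that is cut in the Golgi to release a transcription factor, moved least, from 255 to 281 CPM in OE to 207 to 254 CPM with cytokines (log2 fold change −0.21 ± 0.06, adjusted p = 0.00360).

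Ern1, which encodes the sensor IRE1α, rose with cytokines in ZIP, and also in OE, where the other 9 genes fell. It read 256, 258, 220 and 286 CPM in ZIP and 380, 412, 330 and 377 CPM in ZIP+Cy. All ZIP+Cy libraries were higher (log2 fold change 0.55 ± 0.10, adjusted p = 2.08e-04). In OE it went from 147, 188, 175 and 160 CPM to 174, 241, 251 and 204 CPM, with overlap of the groups (log2 fold change 0.38 ± 0.10, adjusted p = 0.00384). In Scr it went from 193, 215, 189 and 181 CPM to 232, 264, 233 and 220 CPM, without overlap, at a log2 fold change of 0.29 ± 0.10 and an adjusted p value of 0.0549.

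Of the 10 genes, 0 passed in Scr, where 10.5% of all genes were higher and 7.33% lower. At an unadjusted p value under 0.05 there were 3 (Pdia4, Ern1 and Herpud1), DESeq2's Wald test called 2 (Ern1 higher, Herpud1 lower), and 0 reached the study's thresholds, against 10.6% of all genes. In ZIP 1 of 10 passed, where 13.6% of all genes were higher and 12.8% lower, and 0 reached the study's thresholds, against 12.5%. Library numbers paired the untreated and treated libraries of each line, and the number as a block changed calls in Scr and ZIP. With this block 12.2% of all genes were higher and 10.4% lower in Scr, and 15.7% and 15.9% in ZIP. Pdia4 (adjusted p = 0.0114) and Ern1 (0.0215) rose and Herpud1 (0.00777) fell in Scr, and Pdia4 (0.0048) rose with Ern1 in ZIP under it. When the block was fitted to the 2 groups of a line alone, 7 of 10 genes passed in Scr (16.6% of all genes higher, 14.5% lower). Hspa5, Calr, Pdia4, Dnajb9, Sdf2l1 and Ern1 rose there, with log2 fold changes of 0.19 to 0.37, and Herpud1 fell. The same fit in ZIP also called 7 of 10 (18.2% of all genes higher, 18.4% lower), namely those 6 higher, at 0.17 to 0.56, and Herpud1 lower. In OE it called the 9 genes lower and Ern1 higher. Without ZIP replicate 4, whose untreated library had the highest level of 7 of the 10 genes in ZIP, 4 genes rose in ZIP in place of 1 (Hspa5, Calr, Pdia4 and Ern1).

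Whether the lines responded differently was tested with interaction terms of that model. Cytokine responses of OE differed from those of Scr for 8 of 10 genes, all more negative in OE, where 10.3% of all genes were more negative and 9.64% more positive. The difference in log2 fold change was −1.88 ± 0.24 for Sdf2l1 (adjusted p = 9.63e-06), −1.35 ± 0.20 for Pdia4 (5.54e-05), −1.07 ± 0.15 for Hspa5 (3.87e-05) and −1.01 ± 0.20 for Hsp90b1 (8.05e-04). It was −0.98 ± 0.19 for Calr (adjusted p = 5.85e-04), −0.95 ± 0.20 for Dnajb9 (0.00137), −0.62 ± 0.11 for Xbp1 (2.64e-04) and −0.24 ± 0.08 for Atf6 (0.0312). Herpud1 and Ern1 did not pass, at −0.15 ± 0.18 and 0.09 ± 0.14. Between ZIP and Scr, 0 of 10 responses differed by the same test, as was so of nearly all genes (0.0509% more positive, 0.00565% more negative). The 10 differences ran from −0.16 to 0.27, with 0 at an unadjusted p value under 0.05 and 0 by DESeq2, and Ern1 had the highest (0.27 ± 0.14).

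The next comparisons asked how the lines differed from Scr. Without cytokines, OE cells had 6 of the 10 genes higher than Scr and 0 lower, where 24.5% of all genes were higher and 25.6% lower, and 5 reached the study's thresholds, against 25.7%. Pdia4 (log2 fold change 0.99 ± 0.14, adjusted p = 2.42e-06) and Sdf2l1 (0.98 ± 0.17, adjusted p = 2.51e-05) were 1.99-fold and 1.97-fold higher in OE. Hsp90b1 (0.67 ± 0.14, adjusted p = 2.98e-04), Dnajb9 (0.66 ± 0.14, adjusted p = 3.52e-04) and Hspa5 (0.65 ± 0.11, adjusted p = 1.91e-05) were 1.57-fold to 1.59-fold higher. Xbp1 was 1.41-fold higher (log2 fold change 0.50 ± 0.08, adjusted p = 6.47e-06). For these 6 genes and Atf6, every OE library was above every Scr library, as for 4021 of all 17696 genes (46.5% of all genes did not overlap, in either direction). Calr differed from them, with a log2 fold change of −0.08 ± 0.13 (adjusted p = 0.641), and so did Herpud1 (0.16 ± 0.13), Ern1 (−0.22 ± 0.10, adjusted p = 0.0842) and Atf6 (0.13 ± 0.06, adjusted p = 0.0627). The β cell marker sum was also highest in OE, but its genes differed in direction. Ins1 (674 CPM in Scr, 7673 CPM in OE), Ins2, Iapp, Slc2a2, Chga and Pcsk1 had higher means in OE. Pdx1 (824 and 627 CPM), Nkx6-1 (254 and 167 CPM), Mafa (1050 and 716 CPM) and G6pc2 (3184 and 1895 CPM) had lower means there. The part of these markers in the differences of the 10 genes was not tested.

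ZIP cells without cytokines had 4 of 10 genes higher than Scr and 1 lower, where 13.5% of all genes were higher and 14.8% lower, and 0 reached the study's thresholds, against 14.9%. Hspa5 (log2 fold change 0.34 ± 0.11, adjusted p = 0.0197), Pdia4 (0.42 ± 0.14, adjusted p = 0.0269), Dnajb9 (0.47 ± 0.14, adjusted p = 0.0136) and Ern1 (0.39 ± 0.10, adjusted p = 0.00482) were higher. Herpud1 was lower, at 97.1, 123, 98.6 and 108 CPM in ZIP against 146, 143, 127 and 124 CPM in Scr (log2 fold change −0.34 ± 0.13, adjusted p = 0.0464). The libraries of Hspa5, Herpud1 and Ern1 did not overlap, nor did those of Atf6, which did not pass (0.12 ± 0.06, adjusted p = 0.130), while those of Pdia4 and Dnajb9 did. Of all genes, 27.2% did not overlap. These calls leaned on single libraries: without ZIP replicate 4 Ern1 alone passed, without Scr replicate 1 Dnajb9 and Ern1 did, and without ZIP replicate 2 Pdia4, Ern1 and Herpud1 did. Herpud1 kept its call in 2 of the 8 fits that leave out 1 library. Without ZIP replicate 1, the untreated library with the highest fibroblast marker sum, Hspa5, Pdia4, Dnajb9 and Ern1 were higher.

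After cytokines, ZIP+Cy had the same 4 genes higher than Scr+Cy and 0 lower (all genes, 12.9% higher and 15.1% lower), and 1, Ern1, reached the study's thresholds, against 15.8%. Ern1 was 1.58-fold higher (log2 fold change 0.66 ± 0.10, adjusted p = 1.99e-05), and all ZIP+Cy libraries (330 to 412 CPM) were above all Scr+Cy libraries (220 to 264 CPM). Hspa5 (0.34 ± 0.11, adjusted p = 0.0218), Pdia4 (0.44 ± 0.14, adjusted p = 0.0223) and Dnajb9 (0.44 ± 0.14, adjusted p = 0.0192) had nearly the fold changes they had without cytokines. Sdf2l1 was at −0.41 ± 0.17 (adjusted p = 0.0652), and with the number as a block, by which these libraries were also paired, it was lower (adjusted p = 0.00688). Without Scr+Cy replicate 1, the library with the highest fibroblast marker sum, Ern1 alone passed, and without ZIP+Cy replicate 4 Ern1 was higher and Sdf2l1 lower.

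OE+Cy had 5 of 10 genes lower than Scr+Cy and 0 higher, where 27.4% of all genes were lower and 26.0% higher, and 2 reached the study's thresholds, against 28.5%. Calr, at 893 to 1288 CPM in OE+Cy and 2106 to 2641 CPM in Scr+Cy, was 2.09-fold lower (log2 fold change −1.06 ± 0.13, adjusted p = 3.21e-07). Sdf2l1 was 1.87-fold lower (−0.90 ± 0.17, adjusted p = 7.20e-05). Hspa5 (−0.42 ± 0.11, adjusted p = 0.00220), Pdia4 (−0.36 ± 0.14, adjusted p = 0.0357) and Hsp90b1 (−0.34 ± 0.14, adjusted p = 0.0458) were lower by less. Hspa5, Calr and Sdf2l1 passed whichever library was left out. Pdia4 and Hsp90b1 lost their calls without Scr+Cy replicate 2, 3 or 4 and without OE+Cy replicate 4, where 3 genes passed, and without OE+Cy replicate 3, where Atf6 passed in their place. Without OE+Cy replicate 2, Dnajb9 passed and Hsp90b1 did not.

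**Figure D3:**
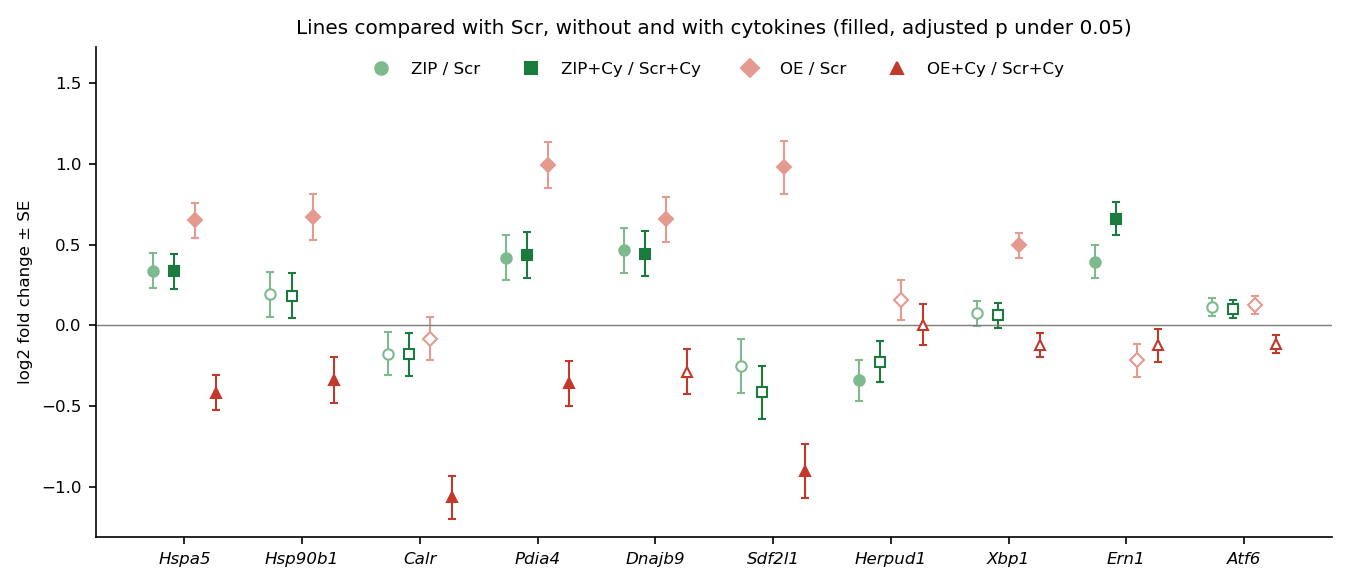
Log2 fold change ± SE of the 10 genes in ZIP and OE against Scr, without (lighter) and with (darker) cytokines in both groups (4 libraries per group); filled symbols have an adjusted p value under 0.05. The values of ZIP are close in both states, while those of OE are above 0 without cytokines for Hspa5, Hsp90b1, Pdia4, Dnajb9, Sdf2l1 and Xbp1 and below 0 with them.

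Calr and Herpud1 lie on chromosome 8, where neighbouring genes were lower in both lines than in Scr. Of 67 genes within 5 Mb of Calr with a mean of at least 10 CPM, all 67 had a lower fitted level in ZIP (median log2 fold change −0.60) and 64 in OE (−0.59). Around Herpud1, 37 of 37 neighbours were lower in ZIP (median −0.53) and 34 of 37 in OE (−0.60). Medians over all genes at this level were −0.01 and 0.00. Both genes stood above these medians, Calr at −0.17 in ZIP and −0.08 in OE, and Herpud1 at −0.34 and 0.16. With cytokines in both groups, at least 60 of the 67 and 35 of the 37 were lower (medians of −0.57 to −0.61 against Scr+Cy), and their part in the comparisons of Calr and Herpud1 between lines was not tested. Around the other 8 genes the medians lay between −0.25 and 0.18, including −0.19 for the 91 neighbours of Hspa5 in OE, a gene that was itself higher.

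**Figure D4:**
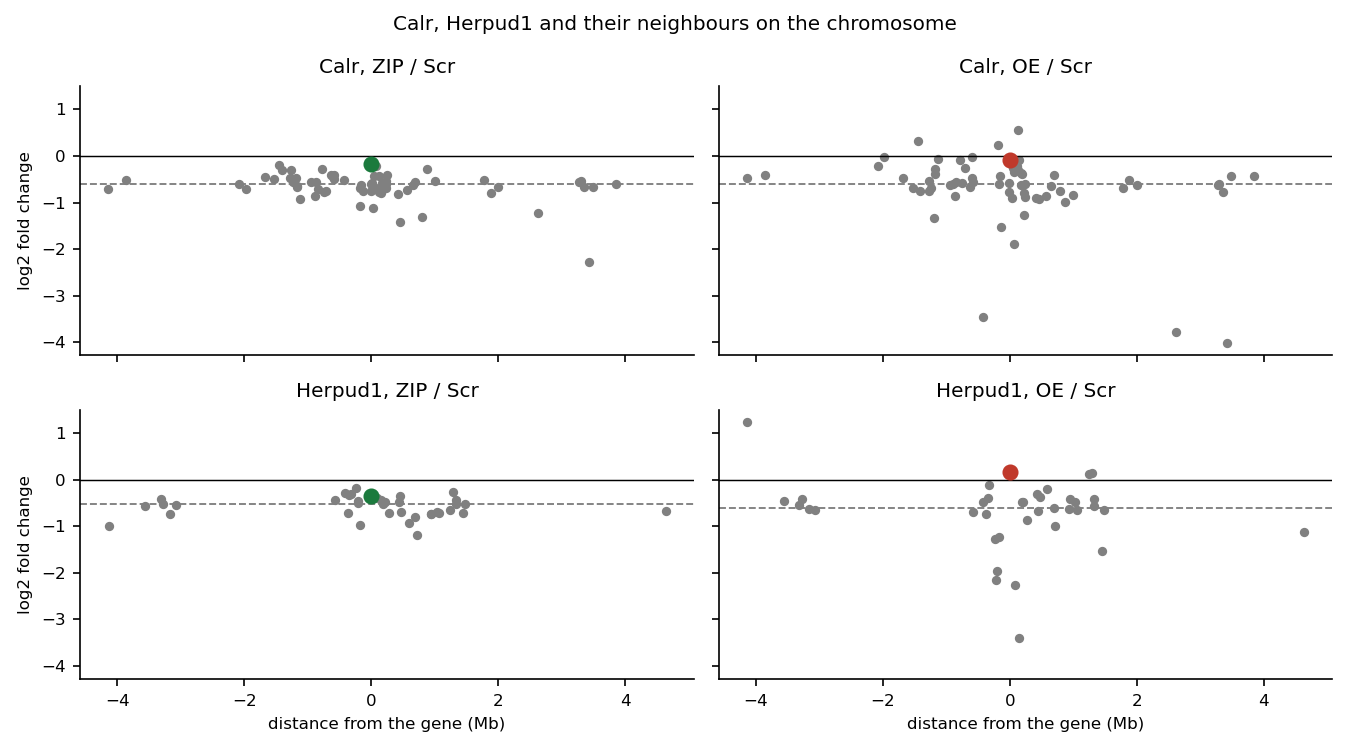
Log2 fold change of Calr and Herpud1 (large point) and of genes within 5 Mb of each with a mean of at least 10 CPM (grey points), by distance in Mb, for ZIP and OE against Scr. Dashed lines mark the medians of the neighbours, −0.60 and −0.59 for Calr and −0.53 and −0.60 for Herpud1.

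To see how the rest of the pathway moved, 7 lists of related genes (100 genes found of 104 symbols) were read from the same fits. In OE cells cytokines lowered most genes of the folding, degradation and translocation lists and raised most genes listed as PERK branch effectors. Of all genes, 23.0% were higher and 21.5% lower in that comparison. Of 18 other ER chaperones and co-chaperones, 15 fell and 0 rose in OE (median log2 fold change −0.65), among them Fkbp11, a prolyl isomerase (−1.94, adjusted p = 2.82e-06), and Creld2, an ER stress-inducible protein (−1.39, adjusted p = 4.80e-07). Of 15 genes of disulfide formation, 13 fell and 1 rose (median −0.55), among them the isomerases Pdia6 (−1.47, adjusted p = 3.12e-08) and P4hb (−1.08, adjusted p = 5.19e-07). Of 22 genes of translocation and signal peptide cleavage, 22 fell (median −0.75), among them Sec61b of the translocon (−0.97, adjusted p = 4.14e-08). Among 11 genes of glycoprotein quality control 10 fell and 1, the folding sensor Uggt1, rose (0.39, adjusted p = 1.40e-05), with a median of −0.43. ER-associated degradation had 14 of 17 genes lower and 0 higher (median −0.33), with Derl3, a channel component, at −2.44 (adjusted p = 2.22e-08).

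The list of PERK branch effectors went the other way in OE, with 7 of 8 genes higher and 0 lower (median 0.87). Only mRNA was measured, and neither the activity of PERK itself nor whether these genes rose through PERK was tested. Atf3, a stress-induced transcription factor, went from 4.59 ± 1.20 CPM in OE to 53.3 ± 4.05 CPM in OE+Cy (SD, n = 4; log2 fold change 3.53, adjusted p = 4.82e-14), and Trib3, a pseudokinase downstream of ATF4, from 21.0 ± 12 to 69.4 ± 15.5 CPM (1.72, adjusted p = 9.17e-06). Of 9 other sensors and the proteases that cut them, 5 rose and 2 fell in OE. Creb3 (0.68, adjusted p = 4.55e-07) and Creb3l1 (1.5, adjusted p = 1.60e-05) rose, and Creb3l2 (−0.84, adjusted p = 5.65e-09) and Atf6b, the paralog of Atf6 (−0.42, adjusted p = 2.55e-06), fell.

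In Scr and ZIP the lists are set beside all genes, of which 10.5% were higher and 7.33% lower with cytokines in Scr, and 13.6% and 12.8% in ZIP. In Scr the chaperone list had 2 higher and 0 lower, disulfide formation 3 and 0, glycoprotein quality control 3 and 1, degradation 0 and 2, translocation 0 and 0, the other sensors 2 and 0, and PERK effectors 1 and 1. Counts in ZIP were 1 and 0, 2 and 2, 2 and 3, 0 and 3, 1 and 0, 2 and 0, and 2 and 0 in the same order. Medians of the 7 lists lay between −0.16 and 0.11 in Scr and between −0.11 and 0.08 in ZIP. Eif2ak3, which encodes PERK, rose in Scr (0.36, adjusted p = 0.00148) and in ZIP (0.29, adjusted p = 0.00579), as did Uggt1 (0.46 and 0.40), Creb3 (0.69 and 0.72) and Atf3 (1.68 and 1.5). Without cytokines, Eif2ak3 was higher than in Scr in OE (0.58, adjusted p = 7.44e-07) and in ZIP (0.46, adjusted p = 5.4e-05). With them, it was higher than in Scr+Cy in OE+Cy (0.61, adjusted p = 3.5e-07) and in ZIP+Cy (0.39, adjusted p = 0.00033).

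**Figure D5:**
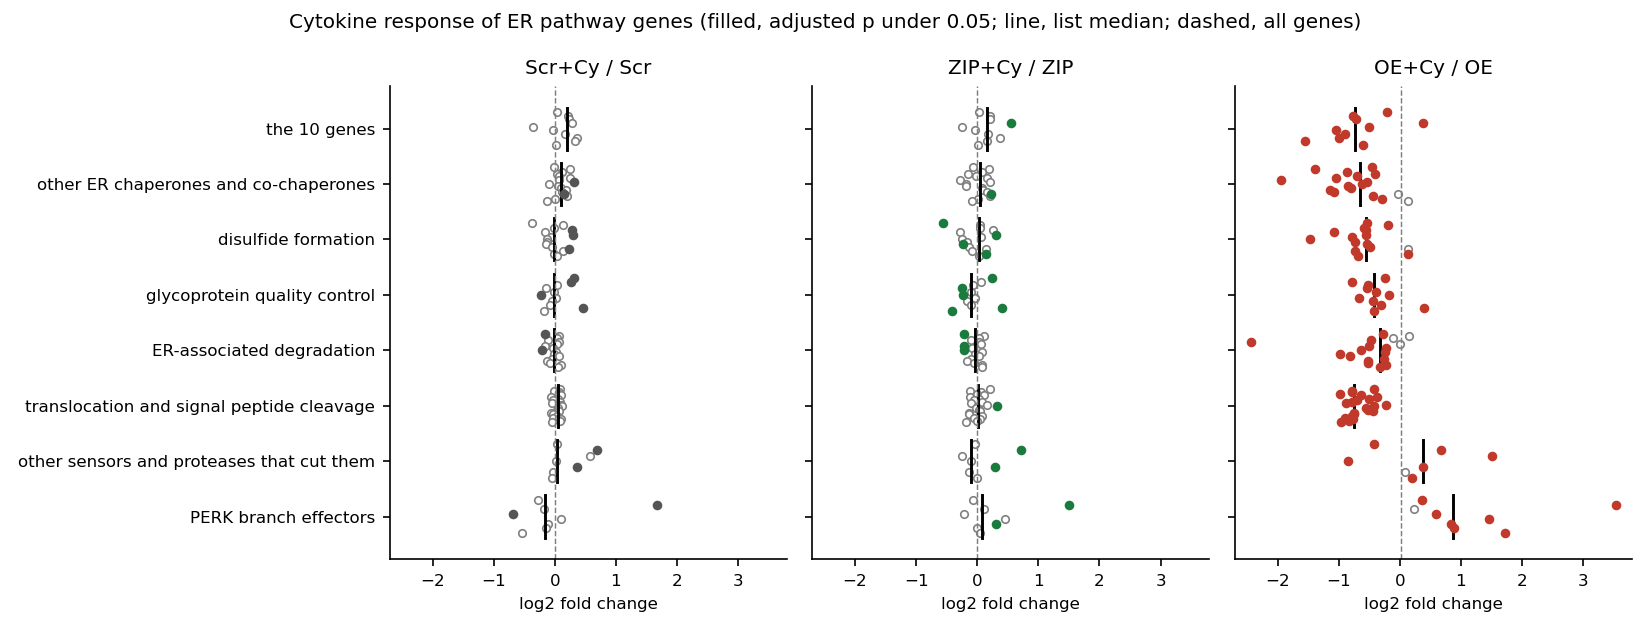
Log2 fold change with cytokines in each line for the 10 genes and for 97 of the 100 list genes, those that reached a mean of 1 CPM in a group; filled points have an adjusted p value under 0.05. Black lines are list medians over all listed genes and the dashed line is the median of all genes; in OE the folding, degradation and translocation lists sit left of it and PERK effectors right of it.

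The interaction of OE against Scr was tested for the lists too. It was more negative in OE for 15 of 18 other chaperones, 12 of 15 genes of disulfide formation, 7 of 11 of glycoprotein quality control, 11 of 17 of degradation and 22 of 22 of translocation, with 0 more positive in each. PERK effectors had 7 of 8 more positive and 0 more negative, and the other sensors 1 and 2 of 9. Of all genes, 10.3% were more negative and 9.64% more positive. Between ZIP and Scr, 0 genes of the 7 lists passed.

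Between untreated lines, 13 of 18 other chaperones were higher in ZIP than in Scr and 0 lower, with Manf, a secreted ER stress protein, at 416 ± 84.2 CPM against 197 ± 14.4 CPM (log2 fold change 1.08, adjusted p = 2.75e-07). In OE 9 were higher and 2 lower, with Fkbp11 (1.64, adjusted p = 1.59e-05) and Creld2 (1.33, adjusted p = 6.42e-07) highest. Derl3, at 18.8 ± 5.46 CPM in OE and 3.29 ± 0.588 CPM in Scr, was higher by 2.51 on the log2 scale (adjusted p = 7.89e-09). Translocation genes were higher for 11 of 22 in ZIP with 0 lower, and for 16 of 22 in OE with 1 lower. For disulfide formation, 8 of 15 were higher and 0 lower in ZIP, against 4 higher and 6 lower in OE. That difference between lines was not tested. Of all genes, 13.5% were higher and 14.8% lower in ZIP, and 24.5% and 25.6% in OE.

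Among treated cells, OE+Cy had 15 of 15 disulfide genes, 13 of 18 other chaperones and 18 of 22 translocation genes lower than Scr+Cy and 0 higher, and 8 of 8 PERK effectors higher. Of all genes, 27.4% were lower and 26.0% higher in that comparison. Atf3 was at 6.59 ± 1.26 CPM in Scr+Cy against the 53.3 CPM of OE+Cy (log2 fold change 3.02, adjusted p = 3.60e-13). ZIP+Cy had 9 of 18 other chaperones higher and 1, Serpinh1, lower than Scr+Cy, and 4 of 8 PERK effectors higher and 0 lower. There, 12.9% of all genes were higher and 15.1% lower. Serpinh1, a collagen chaperone named here after its values were seen, was also among the 13 lower in OE+Cy. Its mean of 0.931 CPM in Scr+Cy came from replicate 1 alone, at 3.73 CPM, the library with the highest fibroblast marker sum, and the other 3 were at 0.

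Within groups the folding genes varied together. Over the 24 libraries, after group means were removed, the 15 pairs among Hspa5, Hsp90b1, Calr, Pdia4, Dnajb9 and Sdf2l1 had Pearson correlations of log2 CPM from 0.56 to 0.95, with a median of 0.90. Xbp1 correlated with these 6 genes at 0.57 to 0.80, Ern1 with the other 9 at 0.07 to 0.71, and Herpud1 at 0.24 to 0.71. Atf6 followed the 6 genes least, from −0.09 with Sdf2l1 to 0.15 with Hspa5 and 0.50 with Dnajb9. Libraries share culture, depth and preparation, and these values are a description. Without removing group means, the lowest correlation was −0.56, between Herpud1 and Ern1, a pair at 0.66 after they were removed.

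The genes most like each member over the 24 libraries were sought among 9737 genes with a mean of at least 10 CPM, by Pearson correlation of log2 CPM. For Hspa5 they were Hyou1 (0.98), Dnajc3 (0.97) and Ssr3 (0.96), and for Pdia4 Creld2 (0.97), Hspa5 (0.96) and Dnajb11 (0.95). Hsp90b1 was most like Sec63, Canx and Ostc (0.93 to 0.94), Dnajb9 most like Srp72, Hspa5 and Armcx3 (0.91), Xbp1 most like Slc39a7, Sec24d and Sec61a1 (0.95 to 0.96), and Atf6 most like Sel1l, Ttc37 and Edem3 (0.85 to 0.89). Calr went with Ppp1cc and Ccne1 (0.92), and with Ppp1ccb, whose reads may be shared with Ppp1cc. Sdf2l1 went with Trabd, Rpl36al and Umps (0.91 to 0.94), Herpud1 with Dact2, Nab2 and Sumo3 (0.85 to 0.89) and Ern1 with Xpo6, Galr3 and Bicd2 (0.92 to 0.93).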

How the data were processed

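The 24 libraries were grouped by their labels. Read quality was checked by the authors in FastQC. They used STAR for alignment to mm10 and Partek Flow for counting over RefSeq Transcripts 96, and they removed genes with under 10 reads in total, so all 17696 genes had passed that filter, the 10 members among them. The methods and the submitters' processing notes give different versions (the latter STAR 2.7.8a and Partek 11.0.24.0204), and how reads were counted and whether strand was used is not given in the sources used here. The authors deposited estimated counts per gene, 30.3% of them not whole, and a normalized signal that equals the counts divided by 1 factor per library. That table was used only for this check, which held within 0.909% for counts of at least 100.

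Estimated counts were rounded and fitted in edgeR 4.0.16 (R 4.3.3; TMM, 6 group means, glmQLFit, glmQLFTest, no further filter), and the SE is the log2 fold change over the square root of F. The fit was tested on simulated data. The 10 members and the 7 lists were chosen with earlier results of these data known. Named genes are the members, per list and comparison up to 2 rises and 2 falls (adjusted p under 0.05, mean of at least 1 CPM), and the 3 genes most like each member. Marker lists for alpha, delta and PP, leukocyte and endothelial cells were also checked, and their sums were at most 369, 4.54 and 4.62 CPM. The first of these lists differed between the lines. Gcg averaged 288 CPM in Scr, 185 CPM in ZIP and 41.4 CPM in OE, and Ppy 0, 0 and 8.89 CPM. Libraries were taken as paired where deviations from group means correlated over 0.1 (Pearson) for every number, over 14553 genes. This held within each line (0.235 to 0.601 in Scr, 0.160 to 0.280 in ZIP and 0.114 to 0.364 in OE) and between ZIP+Cy and Scr+Cy (0.128 to 0.249). Alternatives were DESeq2 1.42.0 (Wald test), its size factors in edgeR, filterByExpr, a block for the replicate number, fits restricted to the groups of each comparison, and leaving out each library. A block fitted to only the groups compared was chosen after seeing the data.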

Additional observations from a re-analysis of the deposited data

Results flagged for a closer look

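In the 60 sets of 4 libraries (10 genes in 6 groups), 2 held a library far from the other 3. That is not above the share of about 1 in 20 that chance gives. Pdia4 in OE+Cy replicate 3 was at 192 CPM, against 233 to 235 CPM in the other 3 (gap over range 0.933, above Dixon's 95% limit). Xbp1 in ZIP+Cy replicate 3 was at 206 CPM, against 251 to 260 CPM (gap over range 0.84).

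The cytokine response differed between OE and Scr cells, by the interaction term in edgeR, for 8 of the 10 genes. The differences in log2 fold change were −1.88 for Sdf2l1, −1.35 for Pdia4, −1.07 for Hspa5, −1.01 for Hsp90b1, −0.98 for Calr, −0.95 for Dnajb9, −0.62 for Xbp1 and −0.24 for Atf6. Each was more negative in OE, and for Sdf2l1, Pdia4, Hspa5, Calr, Dnajb9 and Atf6 all 4 same-numbered pairs were higher with cytokines in Scr and lower in OE.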

How the results depend on the processing

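The 10 calls in OE+Cy against OE held under every alternative, including each library left out (10 to 10 called). Of the 8 differences between the responses of OE and Scr, all passed under the alternatives other than leaving out a library, where 7 to 8 did and Atf6 was the gene lost, and 0 to 0 passed for ZIP against Scr. In Scr+Cy against Scr, where 0 of 10 passed (17.8% of all genes), 1 did with DESeq2's size factors (18% of all genes), 2 with the filterByExpr filter (22%), 2 with DESeq2's Wald test (21.4%), 3 with the replicate block (22.6%), 5 with only the groups compared (16.8%), 7 with the block and only those groups (31.1%), and 0 to 1 without a library. In ZIP+Cy against ZIP, where 1 passed (26.4% of all genes), 2 did with the filter (33.3%), with DESeq2's Wald test (31.3%) and with the block (31.7%), 7 with the block and only those groups (36.7%), and 1 to 4 without a library. Leaving out a library gave 1 to 5 calls in ZIP against Scr, 6 to 8 in OE against Scr, 1 to 4 in ZIP+Cy against Scr+Cy and 3 to 5 in OE+Cy against Scr+Cy. The causes were not tested. Of 720 single-gene values without a library, 17 changed sign, none of them past the threshold.

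These 17 belonged to 8 gene and comparison pairs, whose log2 fold changes without 1 library ran, in ZIP+Cy against ZIP, from −0.184 to 0.113 for Hsp90b1, −0.00463 to 0.341 for Sdf2l1, −0.0624 to 0.0781 for Xbp1 and −0.0129 to 0.0408 for Atf6. They ran from −0.119 to 0.0433 for Hsp90b1 in Scr+Cy against Scr and from −0.0374 to 0.0637 for Herpud1 in OE+Cy against Scr+Cy. For the OE response against that of Scr they ran from −0.286 to 0.0250 for Herpud1 and from −0.00304 to 0.186 for Ern1.

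Where replicate numbers did not pair the libraries, the block gave 5 calls in ZIP against Scr (33.6% of all genes), 8 in OE against Scr (with Atf6 higher and Ern1 lower; 54.1%) and 6 in OE+Cy against Scr+Cy (with Dnajb9 lower; 57.1%), where the fits without it gave 5, 6 and 5 (28.3%, 50.1% and 53.4%). Correlations by number ran from 0.050 to 0.563, −0.076 to 0.266 and −0.005 to 0.114. The lowest level of the 10 genes, 53.9 CPM for Sdf2l1 in OE+Cy replicate 3, rested on 1708 reads.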
